A study of Mus musculus with 18 samples.

Results

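The insulin-like growth factor (IGF) genes described here are 10 of the 53465 genes in the count table, taken by symbol: the ligand gene Igf1, the receptor gene Igf1r, the binding protein genes Igfbp2, Igfbp3, Igfbp4, Igfbp5 and Igfbp7, and the RNA-binding protein genes Igf2bp1, Igf2bp2 and Igf2bp3. They were chosen by symbol with the measured differences of these libraries between genotypes and between pieces in view, so their values between genotypes and between pieces are given as a description. The libraries came from mouse embryos at embryonic day 9 with 20 to 24 somites. The 5 control and 4 DKO embryos each gave an anterior and a posterior library. DKO embryos carried a conditional deletion of both Meis1 and Meis2, which encode TALE homeodomain transcription factors, made with a Cre recombinase called Delta1Cre. Which cells of a piece express the Cre, the alleles of the controls and the strain were not given in the sources used here. Posterior pieces held the axial bud and its newest somites, and anterior pieces the other, older somites of the axis. The study asked for Meis targets in the patterning of the skeleton from front to back, and the pieces separate early patterning from later somite differentiation.

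IGF ligands bind the tyrosine kinase receptor encoded by Igf1r, which acts through insulin receptor substrate adaptors, phosphoinositide 3-kinase and Akt to promote growth and survival. Igf2 is the main ligand gene of the embryo, and Igf2r encodes a receptor that removes IGF2 from the cell surface. Secreted IGF binding proteins hold the ligands away from the receptor or release them after proteolysis. IGFBP7 binds IGFs weakly. The Igf2bp genes are named for the Igf2 mRNA that their products bind: they encode oncofetal RNA-binding proteins, not secreted carriers of IGFs. Their mRNAs, with those of Lin28a, Lin28b and Hmga2, are known targets of the let-7 miRNAs, and the LIN28 proteins block let-7 maturation.

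Igfbp2 and Igfbp5 lie tail to tail on chromosome 1 with a gap of 5457 bp between them, and are shown with Igfbp3 because these 3 genes differed most between genotypes among the members with fits in both pieces. Igfbp3 sits on chromosome 11, 3539 bp from Igfbp1. The 250 bases before each start are printed 5′ to 3′ on the gene's strand, from RefSeq in GRCm38.p6 (the Igfbp5 window is 231 bases). RefSeq gives Igfbp2 a further start, whose window at chr1:72825137-72825386 held 0 matches to GGGCGG and is not printed. The windows are shown with each match to GGGCGG, a GC box, in capitals.
Igfbp2, chr1:72824230-72824479, plus strand: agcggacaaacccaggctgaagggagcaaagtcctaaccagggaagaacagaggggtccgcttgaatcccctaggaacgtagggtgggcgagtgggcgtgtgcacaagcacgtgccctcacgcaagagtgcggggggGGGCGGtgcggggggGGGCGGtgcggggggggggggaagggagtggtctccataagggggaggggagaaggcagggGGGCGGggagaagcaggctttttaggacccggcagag
Igfbp5, chr1:72874885-72875115, minus strand: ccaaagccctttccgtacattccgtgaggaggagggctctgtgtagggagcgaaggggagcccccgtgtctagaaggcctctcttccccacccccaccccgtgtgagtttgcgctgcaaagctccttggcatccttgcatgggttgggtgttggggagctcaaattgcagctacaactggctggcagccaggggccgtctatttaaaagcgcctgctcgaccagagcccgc
Igfbp3, chr11:7213924-7214173, minus strand: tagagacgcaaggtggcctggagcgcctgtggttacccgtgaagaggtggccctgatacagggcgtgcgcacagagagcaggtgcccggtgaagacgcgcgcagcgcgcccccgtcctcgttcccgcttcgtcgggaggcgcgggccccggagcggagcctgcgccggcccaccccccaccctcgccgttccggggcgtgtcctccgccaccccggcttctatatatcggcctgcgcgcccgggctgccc
RefSeq held 10 such windows for 9 of the 10 genes, and Igf2bp1 was not among them. TGACAG, the core of the Meis binding motif, was in 0 of the 10 windows on either strand, and in 15.9% of 32851 windows over all genes. TGATNNAT, a PBX-HOX motif, was also in 0 of 10, against 7.68% of all windows. GGGCGG was in 4 of 10 windows (Igf1r, Igf2bp2, Igfbp2 and Igfbp7), against 32.7%, and TATAAA on the gene's strand was in that of Igfbp4, against 7.59%. These are matches of letters in short windows and say nothing of binding elsewhere.

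The Igf2bp mRNAs share matches to the let-7 seed, shown here as a sequence feature that the choice of genes did not use. In the miRNA, capitals mark bases 2 to 8. In the sites, written 5′ to 3′ on the mRNA strand, capitals mark CTACCTC, the match to those bases.
mmu-let-7a-5p: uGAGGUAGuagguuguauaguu
Igf2bp1 site 1, chr11:95961778-95961800, minus strand: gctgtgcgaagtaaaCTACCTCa
Igf2bp1 site 2, chr11:95959357-95959379, minus strand: cagcagtgctattaaCTACCTCa
Igf2bp1 site 3, chr11:95958763-95958785, minus strand: gtataaatggatgaaCTACCTCa
Igf2bp1 site 4, chr11:95958140-95958162, minus strand: acttttggttttaatCTACCTCt
Igf2bp2 site 1, chr16:22059473-22059495, minus strand: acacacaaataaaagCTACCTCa
Igf2bp3 site 1, chr6:49086787-49086809, minus strand: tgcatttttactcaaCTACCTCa
In the longest annotated 3′ UTR of each gene, Igf2bp1 held 4 matches, Igf2bp2 and Igf2bp3 held 1 each, Igf1r held 2, and Igf1 and Igfbp5 held 1 each. Igfbp2, Igfbp3, Igfbp4 and Igfbp7 held 0. Lin28b and Hmga2 held 4 each and Lin28a held 2. Over 21677 genes with a 3′ UTR, 8.75% held at least 1 match. A match is a description of the letters, not a measured site, and longer UTRs hold more. The poly(A) libraries do not measure miRNAs.

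The 18 libraries held 12650973 to 38180348 counts. A floor of 3 counts corresponds to 0.0786 to 0.237 CPM (counts of a gene per megacount of its library, scaled between libraries), and it covers counting error only. Meis1 was at 101.6 ± 9.50 CPM (SD, n = 4) in anterior DKO pieces and 125.2 ± 8.64 (n = 5) in anterior controls, and Meis2 at 143 ± 11.3 and 190.0 ± 10.0. Transcripts with a deleted part may still be counted, so these counts do not measure the deletion. The summed markers of the axial bud were 27.2 to 38.7 CPM in anterior and 373 to 736 CPM in posterior libraries, with 10 of 10 markers higher in the posterior piece in each genotype. The posterior library of DKO embryo 4 stood apart: its median log2 deviation of long minus short transcripts was −0.53, and the other 17 libraries lay between −0.12 and 0.24. The posterior differences between genotypes of the members are given with and without it, apart from Igfbp7. Both libraries of control embryo 1, labelled female, carried Y-linked transcripts and almost no Xist, and its sex label served only to match its pieces.

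**Figure D1:**
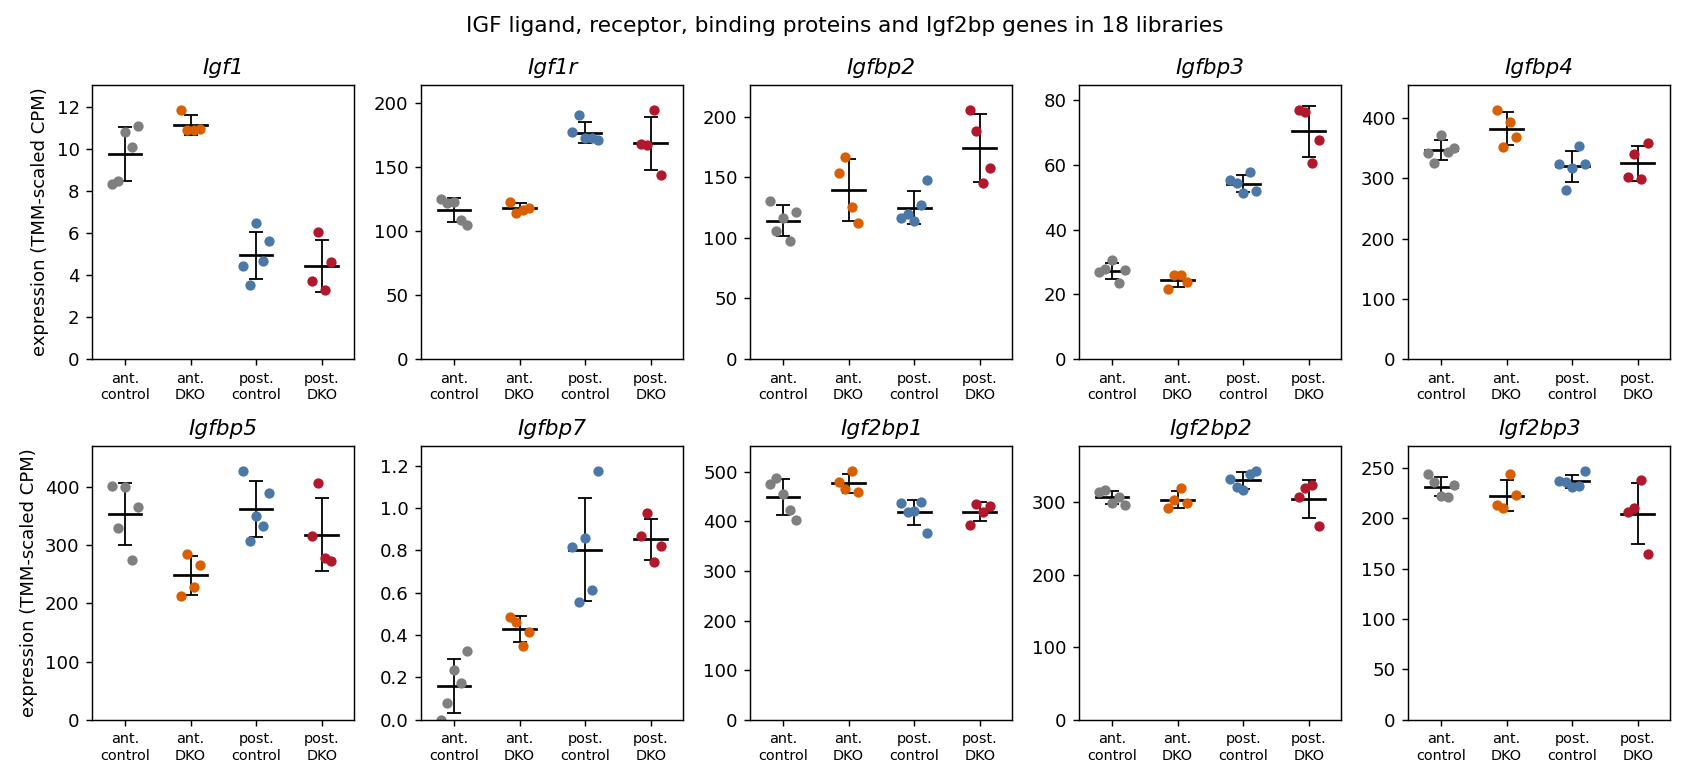
Expression of each gene in TMM-scaled CPM (edgeR's scaling between libraries), by piece and genotype. Each point is a library, bars are the mean and its SD (5 control, 4 DKO embryos), and each panel has its own axis from 0. Igf1 sits lower and Igf1r and Igfbp3 higher in all posterior libraries than in the anterior ones.

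Per kilobase of exon, Igfbp4, Igfbp2 and Igfbp5 led the family and Igf1 and Igfbp7 closed it. In anterior controls, Igfbp4 stood at 78.5 ± 3.74 CPM per kb (SD, n = 5), above Igfbp2 at 61.9 ± 7.04 without overlap. Igfbp2 overlapped Igfbp5 (58.9 ± 8.88), Igfbp5 overlapped Igf2bp1 (46.4 ± 3.65), and Igf2bp1 overlapped Igf2bp2 (41.4 ± 1.2). Below these, each was clear of the next: Igf2bp3 (28.4 ± 1.14), Igfbp3 (8.74 ± 0.789), Igf1r (6.94 ± 0.556), Igf1 (0.985 ± 0.130) and Igfbp7 (0.133 ± 0.105). In anterior DKO pieces Igf2bp1 (49.2 ± 1.95, n = 4) came before Igfbp5 (41.3 ± 5.52), the reverse of anterior controls, and in both groups these neighbours overlapped. In posterior controls Igfbp4 (72.5 ± 5.84, n = 5), Igfbp2 (67.6 ± 7.41) and Igfbp5 (60.2 ± 7.96) overlapped each with the next. In posterior DKO pieces Igfbp2 was first at 94.2 ± 15.04 (n = 4), overlapping Igfbp4 at 73.6 ± 6.52. The ligand gene Igf2, not counted among the 10, reached 1077 ± 166 CPM in anterior controls, where Igf1 was at 9.75 ± 1.29 CPM.

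Igf1, which encodes a secreted ligand of the receptor, was lower in the posterior piece of all 9 embryos. In anterior controls it stood at 8.32, 8.48, 10.8, 10.1 and 11.1 CPM in embryos 1 to 5, and in their posterior pieces at 4.43, 3.52, 6.45, 4.66 and 5.62 CPM. In DKO embryos 1 to 4 the anterior values were 11.9, 10.9, 10.9 and 10.9 CPM and the posterior values 3.71, 6.07, 3.31 and 4.60 CPM. The pieces did not overlap in either genotype: the highest posterior value lay below the lowest anterior one. The log2 difference of posterior to anterior was −0.99 (SE 0.163) in controls and −1.33 (SE 0.178) in DKO embryos. Igf1 lies across the antisense gene Igf1os, and whether counting used the strand was not given in the sources used here. Between genotypes its log2 difference was 0.20 (SE 0.105) in the anterior and −0.15 (SE 0.219) in the posterior piece, with overlapping groups. The posterior value was −0.34 without DKO embryo 2 and −0.17 without DKO embryo 4, and it ran from −0.34 to −0.03 over all alternatives.

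Igf1r, which encodes the signalling receptor, ran the other way and was higher in the posterior piece of all 9 embryos. Anterior controls had 125, 122, 122, 109 and 104 CPM and their posterior pieces 177, 191, 172, 172 and 171 CPM. Anterior DKO pieces had 123, 114, 116 and 118 CPM and posterior ones 168, 167, 194 and 144 CPM. The lowest posterior value was that of DKO embryo 4, and it still exceeded every anterior value. The log2 difference between pieces was 0.60 (SE 0.0584) in controls and 0.52 (SE 0.0851) in DKO embryos. Between genotypes it was 0.02 (SE 0.0579) anteriorly and −0.07 (SE 0.0802) posteriorly, and −0.01 posteriorly without DKO embryo 4. Over all alternatives the posterior value ran from −0.15 to −0.01.

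Igfbp3, the gene of the main IGF carrier of the adult circulation, had a regional step that was wider in DKO embryos. Anterior controls had 27.0, 28.0, 30.5, 23.7 and 27.6 CPM and posterior controls 55.4, 54.6, 51.4, 57.8 and 52.0 CPM. Anterior DKO pieces had 21.8, 25.9, 26.1 and 23.9 CPM and posterior DKO pieces 77.1, 76.5, 60.6 and 67.7 CPM. All 4 posterior DKO values lay above all 5 posterior control values, whereas the anterior groups overlapped with every DKO value below the control mean. The log2 difference of DKO to control was −0.17 (SE 0.0847) in the anterior and 0.38 (SE 0.0754) in the posterior piece, and 0.39 posteriorly without DKO embryo 4. Between pieces the log2 difference was 0.99 (SE 0.0652) in controls and 1.54 (SE 0.0934) in DKO embryos, and within embryos it ranged from 0.75 to 1.29 in controls and from 1.21 to 1.82 in DKO embryos.

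Igfbp2, which encodes a carrier abundant in fetal tissue, was highest in posterior DKO pieces. Its anterior values were 131, 106, 116, 97.3 and 121 CPM in controls and 153, 167, 125 and 112 CPM in DKO embryos. Its posterior values were 116, 119, 114, 127 and 148 CPM in controls and 206, 188, 145 and 158 CPM in DKO embryos. In each piece the groups overlapped: posteriorly only DKO embryo 3 fell under the highest control, embryo 5. The log2 difference of DKO to control was 0.29 (SE 0.118) in the anterior and 0.48 (SE 0.108) in the posterior piece, and 0.52 posteriorly without DKO embryo 4. The posterior piece exceeded the anterior one in 3 of 5 control and 4 of 4 DKO embryos.

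Its neighbour Igfbp5, whose product is bound to matrix and is a regulator of bone and muscle cells, was lower in anterior DKO pieces. Anterior values were 401, 329, 399, 274 and 366 CPM in controls and 213, 285, 229 and 265 CPM in DKO embryos, so that a single DKO embryo, the second, exceeded the lowest control. Posterior values were 428, 306, 350, 333 and 389 CPM in controls and 315, 406, 277 and 272 CPM in DKO embryos, with wide overlap. The log2 difference of DKO to control was −0.51 (SE 0.119) anteriorly and −0.19 (SE 0.130) posteriorly. The posterior value was −0.33 without DKO embryo 2 and −0.13 without DKO embryo 4. Over the 18 libraries the log2 CPM of Igfbp2 and Igfbp5 had a Pearson r of −0.04, and 0.46 after removal of the group means, as a description of libraries that share embryos.

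Igfbp4, the binding protein gene with the highest anterior level per kb, moved little. It ranged from 326 to 371 CPM in anterior controls, 352 to 414 in anterior DKO pieces, 281 to 353 in posterior controls and 299 to 358 in posterior DKO pieces. The log2 difference of DKO to control was 0.14 (SE 0.0564) anteriorly and 0.02 (SE 0.0823) posteriorly, where it was −0.04 without DKO embryo 4. Between DKO pieces it passed without DKO embryo 4, with DESeq2 and with all 18 libraries in 1 fit, at log2 differences down to −0.30. The posterior piece was lower in 8 of 9 embryos, by a mean log2 difference of −0.17 ± 0.167 (SD, n = 9).

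Igfbp7, named for its homology to the binding proteins, was near the floor. Anterior controls had 0 to 5 counts and anterior DKO pieces 6 to 17 counts per library, or 0 to 0.324 and 0.346 to 0.486 CPM. These ranges did not overlap, but the gene did not pass the filter on low counts there and no fold is given. Posterior pieces had 13 to 31 counts in controls and 14 to 28 counts in DKO embryos, or 0.558 to 1.18 and 0.747 to 0.976 CPM. Anterior control counts lay at or about the floor of 3, so no fold between pieces is given. Igfbp7 overlaps Polr2b, an RNA polymerase subunit gene, on the opposite strand, which makes such low counts uncertain.

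The Igf2bp genes differed little between pieces and genotypes. Igf2bp1, which encodes an mRNA-stabilising protein with 4 let-7 seed matches in its own 3′ UTR, had group means of 449 ± 35.4 CPM (SD, n = 5) in anterior controls and 477 ± 18.9 (n = 4) in anterior DKO pieces, and 418 ± 25.2 and 419 ± 19.1 in the posterior ones. In DKO embryos its pieces did not overlap (459.9 to 502 against 392 to 434 CPM), with a log2 difference of −0.18 (SE 0.0577). It passed there with DESeq2, with all 18 libraries in 1 fit and without DKO embryo 4 (−0.22). The posterior difference between genotypes was 0.00 (SE 0.0652), and −0.02 without that embryo. Igf2bp2, whose product binds mRNAs of growth and metabolism, had 314, 316, 299, 307 and 296 CPM in anterior and 332, 320, 317, 339 and 343 CPM in posterior controls. Those pieces did not overlap either, with a log2 difference of 0.11 (SE 0.0412), and in DKO embryos it was 0.01 (SE 0.0715). Igf2bp3, a gene expressed mainly before birth, ranged from 222 to 244 CPM in anterior controls, 211 to 244 in anterior DKO pieces and 231 to 248 in posterior controls.

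In posterior DKO pieces Igf2bp3 had 207, 210, 238 and 165 CPM and Igf2bp2 had 308, 320, 323 and 267 CPM, each lowest in embryo 4. The posterior log2 difference of DKO to control was −0.21 (SE 0.0897) for Igf2bp3 and −0.12 (SE 0.0674) for Igf2bp2. Without that library it was −0.12 and −0.07. Igf2bp3 has 8159 bp of exon and belongs to the class of long transcripts (7811 bp or more) that was low in that library, and Igf2bp2 has 7402 bp and does not. Igf2bp1, with 9682 bp, is also of that class and was not low there, at 431 CPM against 392, 434 and 419 CPM in the other posterior DKO pieces. The part of transcript length in these values was not tested. Igf2bp2 and Igf2bp3 had a Pearson r of 0.78 over the 18 libraries and 0.86 after removal of the group means, with this library included and the embryos shared.

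**Figure D2:**
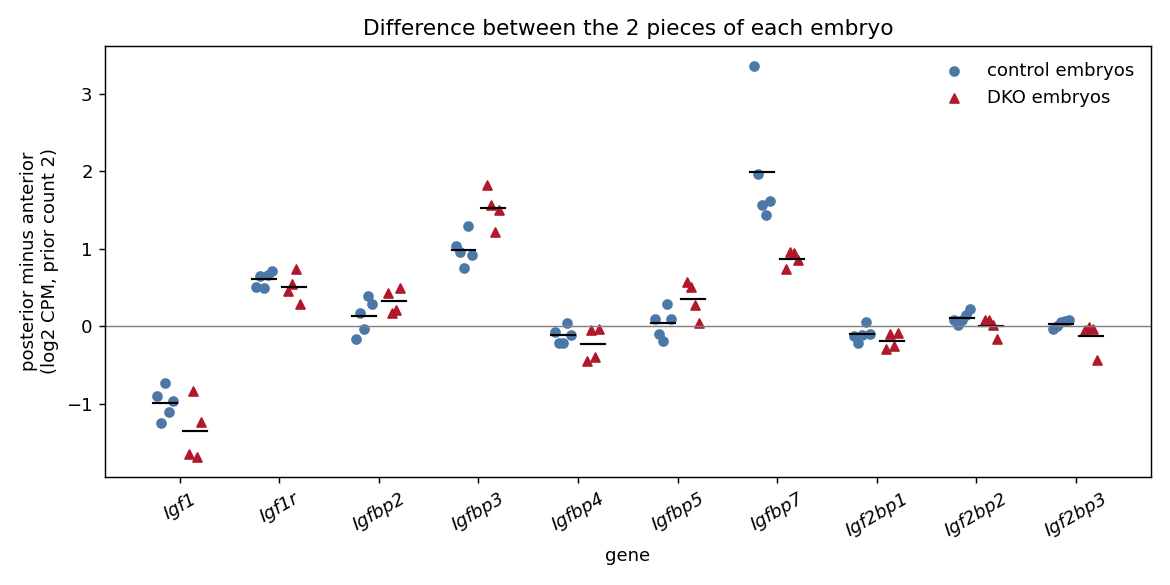
Posterior minus anterior log2 CPM (prior count 2) within each embryo. Circles are 5 control and triangles 4 DKO embryos, and bars are group means. Igf1 is below 0 and Igf1r, Igfbp3 and Igfbp7 are above 0 in all 9 embryos, and Igfbp7 rests on few counts.

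Read against all genes, edgeR's quasi-likelihood test called few genes of any kind between genotypes. In the anterior piece 0 of 9 members tested passed an adjusted p of 0.05, where 0.0394% of all genes did. There 3 of 9 (Igfbp2, Igfbp4 and Igfbp5) had an unadjusted p under 0.05, as had 1983 of 15238 genes in all, and DESeq2 called 1 (Igfbp5), against 1.77%. In the posterior piece 0 of 10 passed, against 0.0126%, with 3 (Igfbp2, Igfbp3 and Igf2bp3) at an unadjusted p under 0.05, as had 1754 of 15936 genes in all, and DESeq2 called 2 (Igfbp2 and Igfbp3), against 0.936%. Groups did not overlap for 0 of 9 members tested anteriorly (5.07% of all genes) and for 1 of 10, Igfbp3, posteriorly (4.29%). For the interaction of piece and genotype 0 of 10 passed, against 0%. There 2 (Igfbp3 and Igfbp7) had an unadjusted p under 0.05, as had 567 of 16428 genes in all. DESeq2 called 1 (Igfbp3), against 0.0211% of the 33184 genes that it adjusted, a wider set than edgeR tested. Igfbp7 passed the filter on low counts there only through the posterior libraries, so nothing is read from its p. The members were chosen with these contrasts known, so the shares are set side by side and nothing is read from them.

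Between pieces, 4 of 10 members passed in controls, where 25.4% of all genes did, and 4 of 10 in DKO embryos, against 18.5%: Igf1 lower and Igf1r, Igfbp3 and Igfbp7 higher in the posterior piece in both. In both genotypes Igfbp7 passed the filter on low counts only through the posterior libraries, where it was high, so nothing is read from its call, and without it 3 of the other 9 members passed in each genotype. Pieces did not overlap for 5 of 10 members in controls (20.1% of all genes) and 5 of 10 in DKO embryos (23.5%). These include Igfbp7 in both genotypes, and again nothing is read from it. With the embryo as a block, 5 of 10 passed in each genotype. So did 5136 of 15294 genes in controls and 3004 of 15777 in DKO embryos. In controls Igf2bp2 was added, as it was by DESeq2, and Igfbp7 is counted under the same limit. In DKO embryos the block added Igfbp2 and Igfbp5 and Igfbp7 no longer passed. Leaving out any of the 4 DKO embryos also ended the call of Igfbp7 there.

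**Figure D3:**
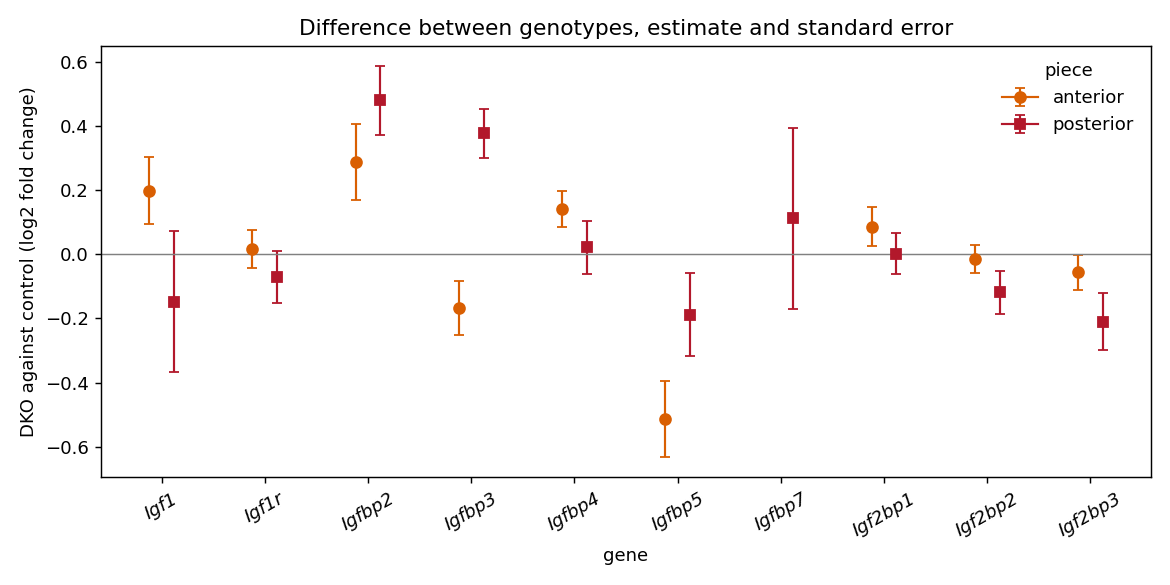
Log2 fold change of DKO against control for each gene, with its standard error from edgeR. Circles are anterior and squares posterior pieces, and anterior Igfbp7 was not fitted. Igfbp5 is lowest anteriorly at −0.51, and Igfbp2 and Igfbp3 are highest posteriorly at 0.48 and 0.38.

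Summed markers of other cell types also differed between groups. Of 11 marker lists, 1 did not overlap between genotypes in the anterior piece: the summed sclerotome markers, genes of the cells that form vertebrae, were 183 to 245 CPM in DKO and 278 to 306 CPM in control pieces, with 0 of 7 called and 4 of 7 at an unadjusted p under 0.05. The neural tube markers overlapped narrowly there, at 558.97 to 623 CPM in DKO and 431 to 559.58 CPM in control pieces, with 0 of 7 called and 6 of 7 at an unadjusted p under 0.05. Posteriorly 1 did not overlap: the surface ectoderm markers were 256 to 319 CPM in DKO and 184 to 249 CPM in control pieces. Again 0 of 7 were called, 3 of 7 had an unadjusted p under 0.05, and their median log2 difference was 0.12. The posterior sclerotome markers overlapped, at 131 to 238 CPM in DKO and 202 to 300.04 CPM in control pieces, with 0 of 7 called and 4 of 7 at an unadjusted p under 0.05. In 4 other lists the sums overlapped, no marker was called, and most markers tested had an unadjusted p under 0.05. The posterior primitive erythroid markers were 1641 to 3388 CPM in DKO and 1363 to 2207 CPM in control pieces (5 of 7 at an unadjusted p under 0.05, and 6 of 7 for the interaction). The posterior gut endoderm markers were 148 to 171 and 111 to 158 CPM (4 of 7), the posterior liver markers 2.29 to 22.8 and 1.16 to 6.995 CPM (2 of the 2 tested, with Alb at or under the floor), and the anterior neural crest markers 174 to 241 and 166 to 200.4 CPM (4 of 5). All 7 sclerotome, 7 neural tube and 7 surface ectoderm markers were above the floor in every group. Between pieces 7 of 11 lists did not overlap in controls and 8 of 11 in DKO embryos. Their part in the values of Igfbp2, Igfbp3, Igfbp5 and the other members was not tested. In whole pieces, fewer cells of a type and less RNA per cell cannot be told apart.

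Somite number gave a measure that the choice of genes did not use. Sex ran with it: embryos with Xist and few Y-linked transcripts had 20 to 22 somites, and the others 23 or 24. Somite number and sex therefore cannot be told apart in these slopes. With genotype in the model, 0 of 9 members passed in the anterior piece, against 0.0328% of all genes, with 1 (Igfbp5) at an unadjusted p under 0.05, as had 1963 of 15238 genes in all, and 1 (Igfbp5) called by DESeq2, against 2.36%. In the posterior piece 0 of 10 passed, against 0.0126%, with 2 (Igf1 and Igfbp5) at an unadjusted p under 0.05, as had 1023 of 15936 genes in all, and 0 called by DESeq2, against 0.748%. Igf1 had the steepest posterior slope, 0.19 log2 units per somite (SE 0.0492, adjusted p = 0.293 by edgeR). Its posterior values were 3.52 and 3.31 CPM in the embryos with 20 somites and 6.45 and 6.07 CPM in those with 24, so each genotype had its lowest value at 20 somites and its highest at 24. In the anterior piece its slope was 0.03 (SE 0.0358). Igfbp5 had a slope of 0.10 (SE 0.0279, adjusted p = 0.189 by edgeR and 0.0253 by DESeq2) anteriorly and 0.09 (SE 0.0354, adjusted p = 0.635 by edgeR) posteriorly.

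The other genes of the pathway, 45 listed by role, are given beside the same counts over all genes. Between genotypes in the anterior piece 0 of 40 tested passed by edgeR (0.0394% of all genes). There 10 had an unadjusted p under 0.05 (1983 of 15238 genes in all) and DESeq2 called 2, Pappa2 and Foxo3 (1.77% of all genes). In the posterior piece 0 of 41 passed (0.0126%), 5 had an unadjusted p under 0.05 (1754 of 15936) and DESeq2 called 2, Pappa2 and Igfbpl1 (0.936%). For the interaction 0 of 41 passed (0%) and 1 had an unadjusted p under 0.05 (567 of 16428). DESeq2 called 0 (0.0211% of the 33184 genes that it adjusted). The median log2 difference of the list was −0.05 anteriorly and −0.09 posteriorly, and 0.00 and 0.01 over all genes tested. Between pieces 17 of 40 passed in controls (posteriorly 13 higher, 4 lower), against 25.4% of all genes, and 13 of 40 in DKO embryos (10 higher, 3 lower), against 18.5%, with medians of 0.14 and 0.05 against −0.01 and 0.01 over all genes tested.

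Pappa2, which encodes a protease that cleaves IGFBP3 and IGFBP5, had the lowest anterior adjusted p of the list and was singled out after its values were seen. It stood at 2.43, 2.32, 2.56, 1.95 and 3.11 CPM in anterior controls and 0.686, 0.874, 1.15 and 1.31 CPM in anterior DKO pieces, without overlap. In the posterior piece controls had 1.08, 0.858, 0.957, 1.22 and 1.504 CPM and DKO embryos 0.340, 0.628, 0.160 and 0.102 CPM, again without overlap. The log2 difference of DKO to control was −1.30 (SE 0.237, edgeR adjusted p = 0.0692) anteriorly and −1.77 (SE 0.436, adjusted p = 0.252) posteriorly, and DESeq2 gave an adjusted p of 0.00134 and 0.0281. It rests on means of 35.2 and 19 counts per library, and posteriorly DKO embryos 3 and 4 had 2.73 expected counts, rounded to 3, and 2 counts, at or under the floor of 3, so the posterior value is uncertain. It was −1.52 without DKO embryo 4 and −2.39 without DKO embryo 2. Between pieces it fell posteriorly by 1.14 in controls (edgeR adjusted p = 0.00136) and by 1.60 in DKO embryos (adjusted p = 0.0414). The DKO call was lost without DKO embryo 1, 3 or 4 or with the embryo as a block. Posterior DKO libraries had 2 to 18 counts. Pappa2 passed the edgeR filter posteriorly only through the controls, and between DKO pieces only through the anterior libraries. Nothing is read from those edgeR p-values, although it is counted among the pathway genes called between DKO pieces.

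Among ligands and receptors, Igf2, the paternally expressed ligand gene, rose in the posterior piece by 0.64 on the log2 scale in controls (SE 0.0989, edgeR adjusted p = 0.000395) and 0.65 in DKO embryos (SE 0.0636, adjusted p = 7.6e-05), from 1003 to 1077 CPM on average in anterior groups to 1570 to 1680 CPM in posterior ones. A readthrough gene, Gm49394, overlaps Igf2 on the same strand. Igf2r, which clears IGF2, was higher by 0.997 in controls (adjusted p = 1.9e-06) and 0.89 in DKO embryos (adjusted p = 0.000684), and overlaps the antisense gene Airn. Insr, the insulin receptor gene, was higher by 0.35 in controls (adjusted p = 0.000225), and in DKO embryos by 0.28 (adjusted p = 0.106). In DKO embryos Insr passed without embryo 4 (0.37) and with all 18 libraries in 1 fit (0.28). Between genotypes Igf2 differed by −0.10 in both pieces (SE 0.0922 and 0.0824), and Igf2r by −0.04 and −0.15 (−0.03 posteriorly without DKO embryo 4).

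Among adaptors, Irs1 and Irs2, whose products couple the receptor to phosphoinositide 3-kinase, went opposite ways between pieces in controls: Irs1 fell by 0.47 and Irs2 rose by 0.30 on the log2 scale (edgeR adjusted p = 0.00396 and 0.00626). Both calls were lost when all 18 libraries shared 1 fit (adjusted p = 0.139 for Irs1). In DKO embryos Irs1 was at −0.88 (SE 0.308, adjusted p = 0.0807), with 6.96 CPM in the posterior library of embryo 4 and 20.7 to 25.8 CPM in the other posterior DKO libraries. Without that embryo it was at −0.65 and passed. With that embryo kept, it also passed with the embryo as a block (−0.98), without the filter and with all 18 libraries in 1 fit. Gab1, a docking adaptor gene, fell by 0.21 in controls (edgeR adjusted p = 0.04998) and 0.33 in DKO embryos (adjusted p = 0.0067), and its call was lost under several alternatives in controls and without embryo 1 in DKO embryos. Foxo4, which encodes a transcription factor inhibited by Akt, was higher by 0.92 and 1.04, and Stc2, which encodes an inhibitor of PAPP-A proteases, by 0.91 and 0.90.

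Of the 8 let-7 and oncofetal genes listed beside the Igf2bp genes, 6 passed between pieces in controls (5 higher, 1 lower), against 25.4% of all genes, and 5 in DKO embryos (4 higher, 1 lower), against 18.5%. Arid3b, a let-7 target gene that encodes a DNA-binding protein, was 66.7 ± 3.94 CPM in anterior and 211 ± 20.9 CPM in posterior controls (SD, n = 5), higher by 1.66 on the log2 scale (edgeR adjusted p = 1.9e-08) and by 1.40 in DKO embryos. Lin28a was higher by 0.74 and 0.65 and Hmga2, a chromatin protein gene of growing embryos, by 0.66 and 0.69, in controls and DKO embryos. In DKO embryos the call of Lin28a was lost without embryo 1 or 4. Lin28b, its paralogue, fell by 0.20 and by 0.26 (edgeR adjusted p = 0.0213 and 0.0279). That call was lost in controls without embryo 1, 2, 3 or 4 or without the filter, and in DKO embryos without any of the 4 embryos. The Igf2bp genes, described above, lay between −0.18 and 0.11 in the same comparisons and none of the 3 passed by edgeR, although Igf2bp2 in controls and Igf2bp1 in DKO embryos passed under the alternatives named above.

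**Figure D4:**
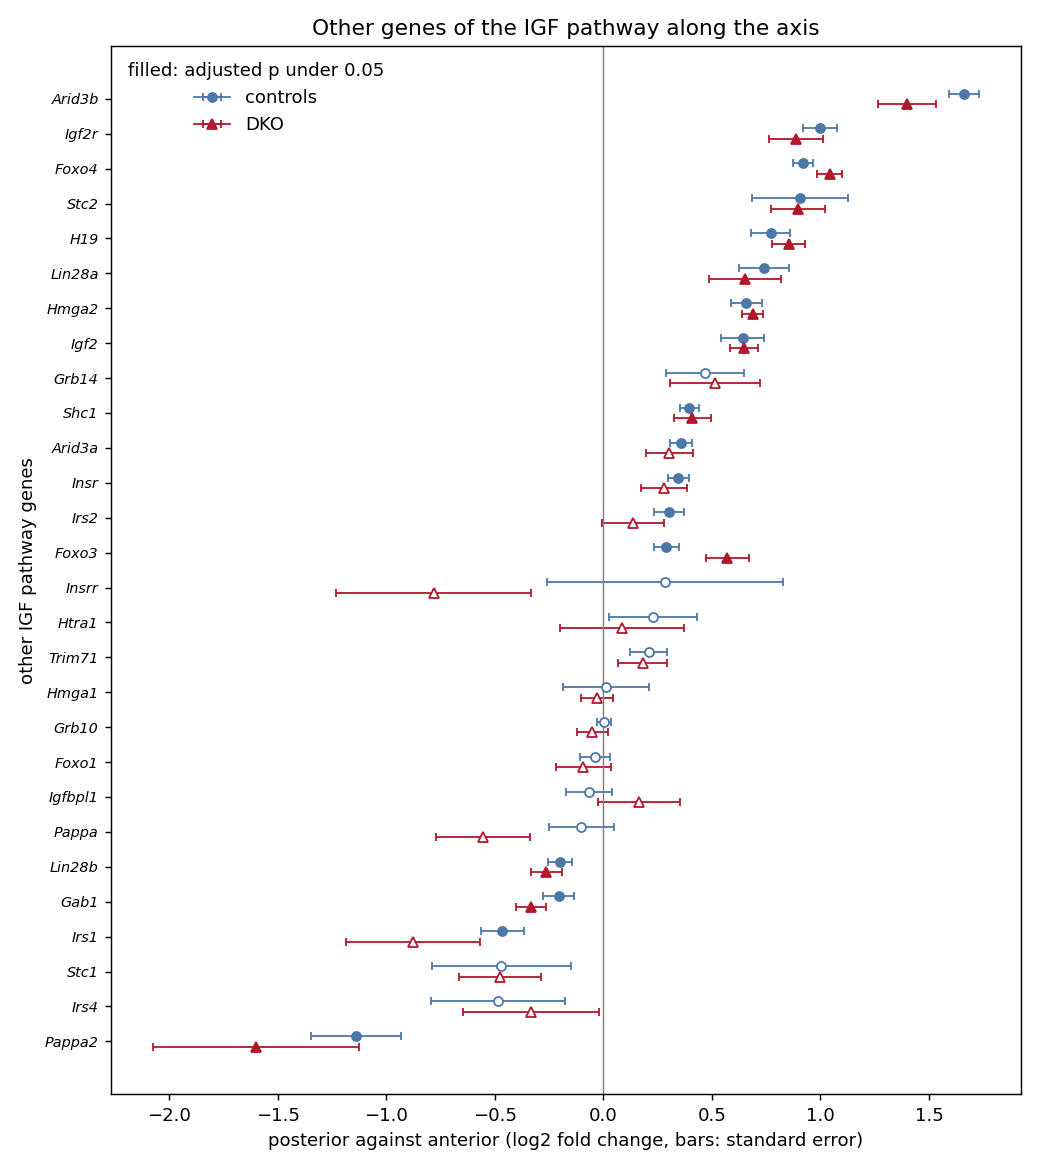
Posterior against anterior log2 fold change of the pathway genes tested, kinases and brakes left out, in controls (circles) and DKO embryos (triangles), with standard errors. Filled symbols passed an adjusted p of 0.05. In controls Arid3b, Igf2r and Foxo4 stand highest, at 1.66, 0.997 and 0.92.

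With somite number, 0 of 40 pathway genes passed anteriorly by edgeR (0.0328% of all genes), 8 had an unadjusted p under 0.05 (1963 of 15238 genes in all) and DESeq2 called 4 (2.36%). Posteriorly 0 of 41 passed (0.0126%), 3 had an unadjusted p under 0.05 (1023 of 15936) and DESeq2 called 2 (0.748%). Lin28a had a slope of −0.15 log2 units per somite anteriorly (SE 0.0251, edgeR adjusted p = 0.0723) and −0.12 posteriorly (SE 0.0213, adjusted p = 0.151), and DESeq2 gave an adjusted p of 6.5e-07 and 4.0e-06. In anterior pieces it stood at 394 CPM in the control and 448 CPM in the DKO embryo with 20 somites, and at 266 and 248 CPM in those with 24. Without DKO embryo 4 it passed in both pieces under edgeR, and without control embryo 4 in the anterior one. Here too somite number and sex cannot be told apart.

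The genes most like each member over the 18 libraries were found by Pearson r of log2 CPM among 11818 protein-coding genes, as a description of libraries that share embryos and pieces. Igfbp3 was closest to Gpc3 (r = 0.99), which encodes a glypican, and Igf1r to Ninl (0.98) and Igf1 to St18 (0.97). Igf2bp3 was closest to Prrc2c (0.96), Igf2bp1 to Men1 (0.92) and Igf2bp2 to Mlxip (0.92). Igfbp5 was closest to Gja5 (0.88), a gap junction gene, Igfbp4 to Cdr2l (0.88), Igfbp7 to Grik4 (0.87) and Igfbp2 to 9530068E07Rik (0.80). The second genes were Mylip, Serinc5, Enpp2, Nipbl, Lmnb2, Stk24, Snai2, Eng, Mdga1 and Gla in the same order of members. Differences between groups carry part of these values: with the group means removed, r was 0.65 to 0.94 for the first genes and 0.48 to 0.92 for the second, lowest for Igfbp3 with Mylip (0.48) and Igfbp7 with Mdga1 (0.49).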

How the data were processed

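Poly(A) RNA of 18 libraries was read from a single end at 61 bp. The authors deposited expected counts per gene, made with CASAVA, cutadapt and RSEM on GRCm38, per the submitters' processing notes. The aligner, tool versions and strand setting were not given in the sources used here.

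Expected counts were rounded. Of 53465 gene identifiers, 53360 matched GENCODE M21, which gave symbols, exon lengths and 3′ UTRs, and 105 did not. R 4.3.3 was used with edgeR 4.0.16 (filterByExpr with a minimum count of 10 and a minimum total of 15, TMM, glmQLFit, glmQLFTest), p-values were adjusted by Benjamini-Hochberg over all genes tested, and the threshold was 0.05. DESeq2 1.42.0 was an alternative. The standard error was the log2 fold change over the square root of F. CPM were TMM-scaled over 18 libraries, with a prior count of 2 for log2 CPM. CPM per kb used merged exon length, which overstates transcript length. Each fit used the libraries of its comparison. The edgeR fits were also run on simulated counts of independent libraries with no embryo effect, which do not test the pairing. Depth was 12650973 to 38180348 counts per library.

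Anterior and posterior libraries were matched to embryos on somite number, sex label and genotype. Control embryos 1 and 5 both had 23 somites, so only the sex label, doubtful for embryo 1, told their pieces apart. With group means removed, the 9 same-embryo pairs had r of 0.256 to 0.570 over genes, and 32 pairs of different embryos −0.283 to 0.0916, so fits with the embryo as a block were alternatives. The standard errors given between pieces and for the interaction are from fits without this block. Those fits treat the pieces of an embryo as independent. Whether embryos came from separate litters is not given in the sources used here.

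The members and the gene and marker lists were chosen with earlier results of these data known. All members are named, as are Igf2, Igf2r, Insr, Irs1, Irs2, Lin28a, Lin28b and Hmga2, the 3 higher and 3 lower pathway genes with the largest change past the threshold and a mean of at least 50 counts in each comparison, and the 2 genes most like each member.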

Additional observations from a re-analysis of the deposited data

Results flagged for a closer look

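Igf1 in the anterior DKO pieces had a highest value, 11.86 CPM in embryo 1, that lay far from the other 3 libraries, which ran from 10.9 to 10.95 CPM. The gap was 0.954 of the group's range. Of the 40 combinations of a gene and a group looked at, this was the only one so marked, and chance marks about 1 in 20.

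Igfbp3 differed in opposite directions between genotypes in the pieces: all 4 anterior DKO values lay below the control mean and all 4 posterior ones above it. The posterior effect exceeded the anterior one by 0.544 on the log2 scale (SE 0.113). The interaction had an adjusted p of 0.573 by edgeR's quasi-likelihood test over all genes and did not pass, and DESeq2 called it. The gene was among those chosen with these contrasts known.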

How the results depend on the processing

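Alternatives were DESeq2, another size factor (RLE), no filter on low counts, all 18 libraries in 1 fit, somite number as a covariate, the embryo as a replicate block, and leaving out each embryo. No fold of a member or of 6 named pathway genes that had passed changed sign. Between genotypes, members that passed went from 0 to 1 anteriorly (Igfbp5) without the filter, with DESeq2 and with the somite covariate. Posteriorly they went from 0 to 2 with DESeq2 and 1 with all libraries (Igfbp3). For the interaction they went from 0 to 1 with DESeq2, and for the anterior somite slope from 0 to 1 with DESeq2. Pathway genes went from 0 to 2 with DESeq2 and 1 with the somite covariate (Foxo3) anteriorly, and from 0 to 2 with DESeq2 and 1 with all libraries (Pappa2) posteriorly. Their somite slopes went from 0 to 3 without the filter and 4 with DESeq2 anteriorly and to 2 with DESeq2 posteriorly. Leaving out an embryo gave 0 to 4 anteriorly (4 without control embryo 4, 1 without DKO embryo 4) and 0 to 1 posteriorly (without DKO embryo 4). Between DKO pieces, leaving out an embryo gave 8 to 12 pathway genes (8 without DKO embryo 1, 13 with all) and 3 to 5 members. Igfbp7 in DKO embryos passed only in the full fit and with RLE. With the replicate block, members that passed were 5 in each genotype and pathway genes 21 in controls and 14 in DKO embryos, and 0 for the interaction.

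Counts over all genes moved more. Anteriorly 6 became 287 with DESeq2, 83 without the filter, 84 with the somite covariate, 19 with all libraries and 1 to 57 when an embryo was left out (57 without DKO embryo 2). Posteriorly 2 became 155, 14, 7, 51 and 2 to 24 (24 without DKO embryo 2). The interaction's 0 became 7 with DESeq2 and 1 without DKO embryo 2, and the 2913 of DKO pieces became 1728 without DKO embryo 1. For the somite slopes, 5 became 343 with DESeq2, 162 without the filter and 0 to 134 without an embryo anteriorly (134 without control embryo 4), and 2 became 137, 29 and 0 to 29 posteriorly (29 without DKO embryo 4). The causes were not tested. With 4 or 5 embryos a group and Igfbp7 at 0 to 31 counts, small differences and its level in the anterior piece are not resolved.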
